A study of Mus musculus with 12 samples.

Results

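The sites described here are KAP1 peaks that were called in the mouse embryonic stem cell line E14 and met no peak of any other list at hand. They were chosen by overlap of 4 deposited lists, for ZFP57 and for KAP1 in each of the wild-type lines A3 and E14. Peaks of all lists that overlapped by at least 1 bp were joined into 12833 sites, of which 1333 held an E14 KAP1 peak. A total of 630 sites held an E14 KAP1 peak and nothing else, 4.91% of all sites and 47.3% of the E14 KAP1 sites (95% exact interval 44.6 to 49.98%). Each consisted of a single peak after overlapping or touching peaks were merged within the list. Absence from the A3 KAP1 list was itself the criterion, so these counts describe the choice and nothing is read from them. Of the other E14 KAP1 sites, 529 were called for KAP1 in both lines without ZFP57, and these serve below as the set for comparison, because they come from the same E14 list and passed the same exclusion of ZFP57.

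The study used chromatin immunoprecipitation followed by sequencing, in which DNA fragments bound by a protein are recovered with an antibody and mapped to the genome. It covered 12 libraries from 3 cell populations, and the 4 wild-type lists used here come from 1 library each. A3 cells are of strain 129X1/SvJ and E14 cells of strain 129P2/OlaHsd, both wild type and both grown without feeder cells in medium with leukemia inhibitory factor. Per the labels, the medium of E14 held 15% fetal calf serum and that of A3 10%, and only A3 received non-essential amino acids. Line, strain, medium and library therefore cannot be told apart in any comparison of E14 with A3. The lists hold positions and no expression values, so the identity of the cells could not be checked against markers. Chromatin was sheared to 100 to 400 bp on average.

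KAP1, also called TRIM28, is a corepressor that does not bind a DNA sequence by itself. It is brought to DNA by KRAB zinc finger proteins, a large and fast-evolving family of which ZFP57 is one member, and it recruits the histone methyltransferase SETDB1, which places H3K9me3, and heterochromatin protein HP1. In embryonic stem cells KAP1 is known for the silencing of endogenous retroviruses and for the protection of imprinted regions. Zinc finger proteins other than ZFP57 can thus place KAP1 at sites without ZFP57. The lists do not name the protein that brought KAP1 to any site described here.

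Positions are 1-based and in genome build mm9. Genes, exons and UTRs are not given for them, because the annotation at hand is of another build, and no mm9 sequence was used. All peaks lay on a grid of 150 bp, so widths and distances are multiples of that step. The E14 KAP1 list held 1334 peaks after merging and the A3 KAP1 list 10295. The lists carry no score or read number, so the depth behind a peak is unknown. Each share is given with its 95% exact interval (Clopper-Pearson), which reflects counting error alone and treats sites as independent. No significance test was run between sets of sites, because sites of 1 library are not replicates.

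Few E14-alone sites lay at the edge of an A3 KAP1 peak. Of the 1334 E14 KAP1 peaks, 614 overlapped an A3 KAP1 peak, and 545 of those (88.8%) lay wholly inside it. Only 8 of the 1334 peaks (0.5997%) missed an A3 KAP1 peak by 1 kb or less. The closest E14-alone site, at chr3:108494851-108495150, touched the A3 KAP1 peak at chr3:108494551-108494850 without sharing a base. With touching peaks counted as overlapping, 629 sites would remain. At chr2:167108401-167108850 and chr3:144153901-144154350 the gap was 150 bp, a single step of the grid. At chr4:61233751-61234200 and at chr2:98175901-98176650 it was 300 bp. The remaining near misses were a gap of 450 bp at chr4:32872201-32872500, 600 bp at chr2:150023401-150023850 and 750 bp at chr17:34861201-34861650.

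On the other side of the criterion, 5 E14 KAP1 peaks (0.814% of the 614) met A3 KAP1 by 150 bp only. They lay at chr6:14363251-14363550, chr7:14117851-14118150, chr12:20803501-20803950, chr12:21636601-21637050 and chr15:22382551-22382850. Each was 300 or 450 bp wide, as was the A3 peak it met. Few sites were thus placed in or out of the set by 1 step of the grid.

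E14-alone sites were mostly narrow. A total of 344 of the 630 (54.6%, 50.6 to 58.5%) had the minimum width of 300 bp, 214 (34.0%, 30.3 to 37.8%) were 450 bp wide and 44 (6.98%, 5.12 to 9.26%) were 600 bp wide. Another 8 were 750 bp wide and 20 were wider. Among the 529 sites of both lines without ZFP57, 111 E14 peaks (21.0%, 17.6 to 24.7%) had the minimum width, 259 (49.0%, 44.6 to 53.3%) were 450 bp wide and 134 (25.3%, 21.7 to 29.3%) were 600 bp wide. The median was 300 bp for E14-alone sites and 450 bp for the sites of both lines. The difference was not tested, because width enters the chance of an overlap and overlap was the criterion that parted the sets.

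Read by width, the share of E14 KAP1 sites called in E14 alone was highest at the minimum width and lowest at 750 bp. It was 344 of 472 sites (72.9%, 68.6 to 76.8%) at 300 bp, 214 of 520 (41.2%, 36.9 to 45.5%) at 450 bp, 44 of 238 (18.5%, 13.8 to 24.0%) at 600 bp and 8 of 52 (15.4%, 6.88 to 28.1%) at 750 bp. Above 750 bp it was 20 of 51 (39.2%, 25.8 to 53.9%). The interval of this last class did not overlap that of the 600 bp class but did overlap that of the 750 bp class. Of the 20 sites, 8 lay in the 3 largest groups described below, 7 of them on chromosome 13. Without those groups, a check added after seeing the data, the share above 750 bp was 12 of 40 (30.0%, 16.6 to 46.5%), whose interval overlapped that of the 600 bp class. Of the other sites above 750 bp, 24 held a ZFP57 peak and 7 were called for KAP1 in both lines without ZFP57. The 20 wide E14-alone sites made up 3.17% of the set (1.95 to 4.86%) and 16.3% of the 277 kb that the set covered. In the sites of both lines the 7 wide peaks made up 1.32% (0.534 to 2.71%) and 4.24% of 255 kb.

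**Figure D1:**
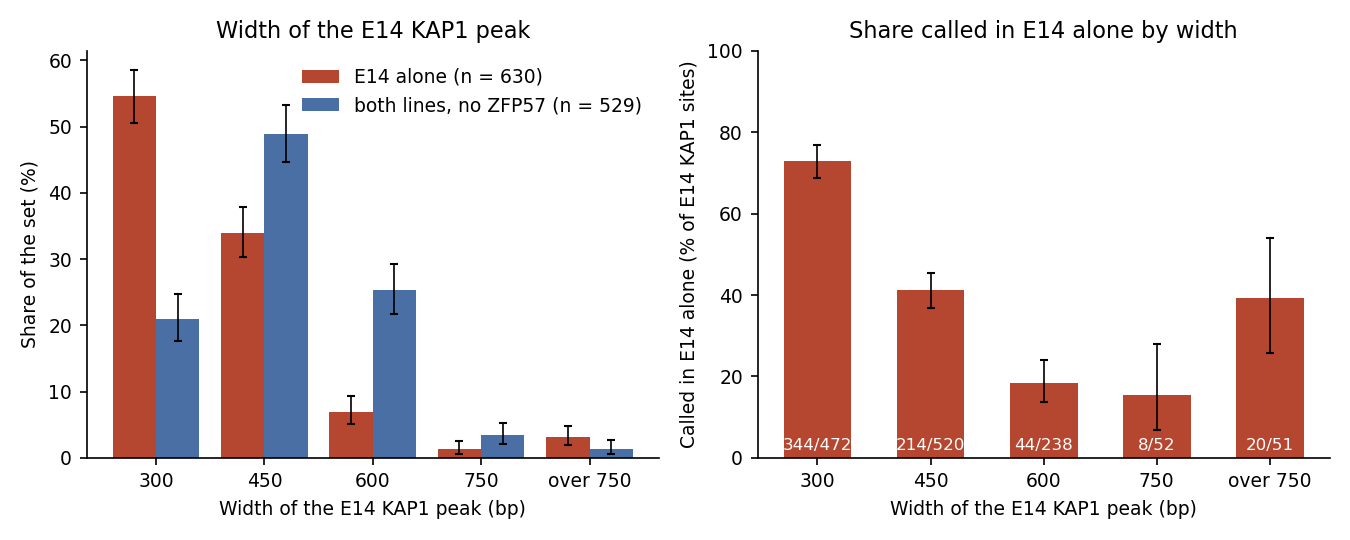
Left, share of each set in 5 width classes of the E14 KAP1 peak (bp), for the 630 E14-alone sites and the 529 KAP1 sites of both lines without ZFP57. Right, E14-alone sites as a share of all E14 KAP1 sites of that width, with counts at the foot of each bar. Error bars are 95% exact intervals. The share is 72.9% at 300 bp, 15.4% at 750 bp and 39.2% above 750 bp.

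The 15 widest E14-alone sites lay on 8 chromosomes, with 4 on chromosome 13, 3 on chromosome 8, 2 each on chromosomes 1 and 12 and 1 each on chromosomes 3, 5, 14 and 18. The last of the 15, on chromosome 1, was tied at 900 bp with sites on chromosomes 4 and 13. The tie was broken by chromosome order, so the tally depends on that rule. The widest 2 lay 223 kb apart on chromosome 8. They were 8700 bp at chr8:19764601-19773300 and 5100 bp at chr8:19996651-20001750. A single A3 KAP1 peak of 1650 bp, at chr8:19800301-19801950, lay between them, 27.0 kb from the first and 194.7 kb from the second. The third, of 3600 bp, was at chr5:146514451-146518050, and the fourth, of 3450 bp, at chr1:85175401-85178850, with an A3 KAP1 peak of 450 bp at a distance of 28.4 kb. A site of 3000 bp was at chr18:7320751-7323750.

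Chromosome 13 held the next 3 sites within 55.2 kb, at chr13:12965551-12968400 (2850 bp), chr13:13011151-13013700 (2550 bp) and chr13:12958501-12960900 (2400 bp). The A3 KAP1 peak nearest to all of them was 3900 bp wide, at chr13:12980401-12984300, and lay between the second and the third site along the chromosome, at gaps of 12.0 to 26.9 kb. The ninth site, of 2250 bp at chr14:6034951-6037200, was 2569 kb from any A3 KAP1 peak. The other named sites were 1350 bp wide or less. They lay at chr12:115726651-115728000, chr8:79972351-79973550, chr13:13202251-13203450, chr3:106083451-106084500, chr12:89531401-89532450 and chr1:87451651-87452550, and the last was 1.95 kb from an A3 KAP1 peak. None of the first 14 had an A3 KAP1 peak within 10 kb.

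Most E14-alone sites were far from A3 KAP1. The median gap to the nearest A3 KAP1 peak was 115 kb, with quartiles of 34.8 kb and 281 kb and a highest value of 4357 kb. Only the 8 sites named above lay within 1 kb. A further 49 (7.78%) lay between 1 and 10 kb, 235 (37.3%) between 10 and 100 kb, 315 (50.0%) between 100 kb and 1 Mb, and 23 (3.65%) beyond 1 Mb. Within 10 kb there were thus 57 sites (9.05%, 6.92 to 11.6%).

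The same gap was measured from other sites without A3 KAP1. Of the 421 sites called for ZFP57 in E14 alone, 9.26% (6.67 to 12.4%) had an A3 KAP1 peak within 10 kb, at a median gap of 97.7 kb. Of the 1393 sites called for ZFP57 in A3 alone the share was 6.32% (5.10 to 7.73%) and the median gap 147 kb. The 66 sites called for both proteins in E14 and not in A3 had 6 within 10 kb (9.09%, 3.41 to 18.7%), at a median gap of 77.6 kb. The interval for E14-alone KAP1 sites within 10 kb overlapped all of these. Within 100 kb it did not in every case, as A3 KAP1 lay there for 292 E14-alone KAP1 sites (46.3%, 42.4 to 50.3%) but for 37.5% (35.0 to 40.1%) of the A3-alone ZFP57 sites. The share within 100 kb was 51.1% (46.2 to 55.9%) for the E14-alone ZFP57 sites and 62.1% (49.3 to 73.8%) for the 66 sites, with intervals that overlapped that of the E14-alone KAP1 sites. From the KAP1 sites of both lines, the next A3 KAP1 peak outside the site was within 10 kb in 114 of 529 cases (21.6%, 18.1 to 25.3%), at a median of 62.7 kb. The A3 KAP1 list itself parted these sites from the E14-alone sites, and the gap was measured differently. The shorter gaps of the sites of both lines are therefore not read as a result.

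**Figure D2:**
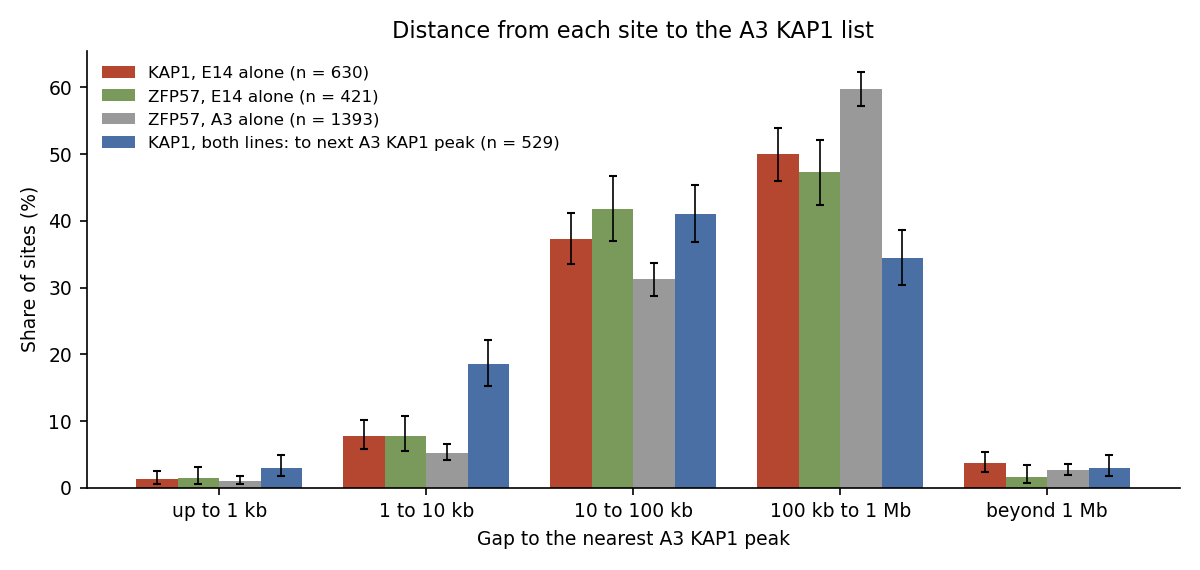
Share of sites (%) in 5 classes of the gap to the nearest A3 KAP1 peak, with 95% exact intervals. For KAP1 sites of both lines the gap is to the next A3 KAP1 peak outside the site. E14-alone KAP1 sites have 9.05% within 10 kb in the first 2 classes together, and the sites of both lines 21.6%.

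The gap also went with width. Its median was 144 kb for E14-alone sites of 300 bp, 85.1 kb at 450 bp and 33.2 kb at 600 bp. It was 122 kb for the 8 sites of 750 bp and 58.1 kb for the 20 wider ones. In the sites of both lines the median gap to the next A3 KAP1 peak was 88.5 kb at 300 bp, 69.8 kb at 450 bp, 48.3 kb at 600 bp, 38.6 kb at 750 bp and 31.95 kb above. The narrow sites were therefore the most remote from A3 KAP1 in each set, and the medians were longer for the E14-alone sites in each class but that of 600 bp. As above, that difference between the sets is not read as a result.

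The 23 sites beyond 1 Mb from A3 KAP1 included 5 on chromosome 6 and 3 each on chromosomes 5, 14 and X. Of the 23, 15 had the minimum width, as had 329 of the 607 sites within 1 Mb. Over the whole set that share was 54.6%, so the count is not read as a trait of the far sites. The 3 on chromosome 14 shared 1 nearest A3 KAP1 peak, at chr14:8606251-8607000, the first of that list on the chromosome from this end. They were chr14:4249201-4249650 at 4357 kb, chr14:5071951-5072250 at 3534 kb and the wide site at 2569 kb already described. On chromosome 6, chr6:79215151-79215450 was 2603 kb and chr6:42877201-42877500 was 2378 kb from A3 KAP1.

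Of the 630 sites, 598 (94.9%, 92.9 to 96.5%) lay on autosomes, 29 (4.60%, 3.10 to 6.54%) on chromosome X and 3 on chromosome Y. Of the sites of both lines, 503 of 529 (95.1%) lay on autosomes and 23 (4.35%, 2.78 to 6.45%) on chromosome X. The A3 KAP1 list as a whole had 1.71% of its peaks on chromosome X. The most E14-alone sites were on chromosome 2, with 59, followed by chromosomes 1 and 13 with 47 each. Per 10 Mb up to the last peak, the autosomes ranged from 1.73 sites on chromosome 11 to 3.91 on chromosome 13. Of the 47 sites on chromosome 13, 9 lay in a single stretch of 345 kb described below.

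As a share of the E14 KAP1 sites on the same chromosome, E14-alone sites were most frequent on chromosome 2, at 60.2% (49.8 to 69.96%). Chromosome 1 followed with 56.0% (44.7 to 66.8%), chromosome 14 with 55.2% (41.5 to 68.3%) and chromosome 13 with 54.7% (43.5 to 65.4%). The lowest autosomal shares were 32.3% (20.9 to 45.3%) on chromosome 17 and 32.6% (23.2 to 43.2%) on chromosome 7. The intervals of chromosome 2 and of chromosomes 7 and 17 did not overlap, but these were picked as the extremes of 21 chromosomes and no adjustment was made for that. Chromosome 7 had 30 E14-alone sites against 42 of both lines, and chromosome 17 had 20 against 31.

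**Figure D3:**
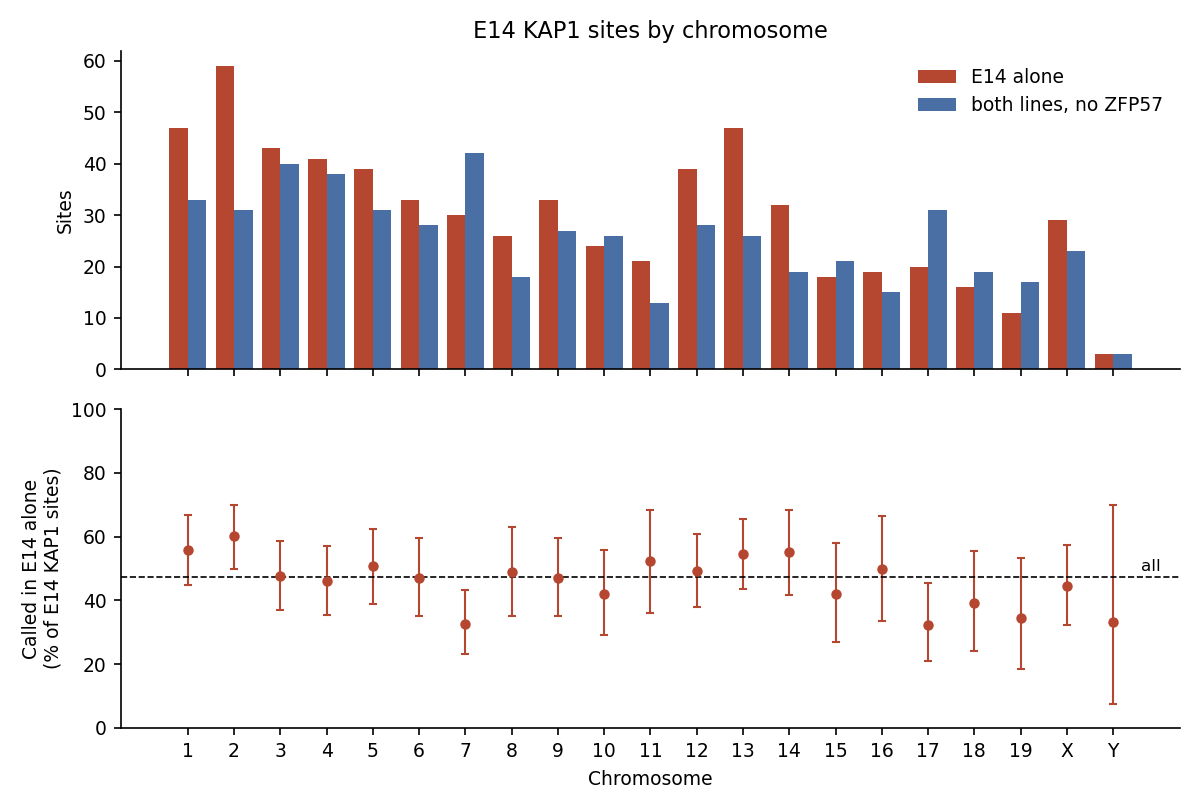
Top, number of E14-alone KAP1 sites and of KAP1 sites of both lines without ZFP57 on each chromosome. Bottom, E14-alone sites as a share of all E14 KAP1 sites on the chromosome, with 95% exact intervals, where the dashed line is the share over all chromosomes (47.3%). Chromosome 2 is highest at 60.2% and chromosomes 7 and 17 are lowest among the autosomes.

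Each autosome was then divided into 10 equal bins from its low-coordinate end, where mouse chromosomes have their centromere, to its last peak. The shares per bin ran from 6.52% to 12.5% for E14-alone sites and from 6.76% to 15.9% for sites of both lines. The first 2 bins held 135 of 598 E14-alone sites (22.6%, 19.3 to 26.1%) and 156 of 503 sites of both lines (31.0%, 27.0 to 35.3%). The last bin held 75 (12.5%, 9.99 to 15.5%) and 34 (6.76%, 4.73 to 9.32%). The intervals did not overlap in either case. These bins held the highest and lowest shares of the sites of both lines, and no adjustment was made for picking them among 10. All A3 KAP1 peaks had 19.5% in the first 2 bins and 13.4% in the last. With chromosome 7, which had the most sites of both lines, left out of both sets, the first 2 bins held 22.4% (18.996 to 26.01%) and 28.9% (24.8 to 33.2%), with overlapping intervals, and the last bin 12.9% (10.2 to 15.9%) and 7.38% (5.16 to 10.15%), whose bounds nearly met.

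These positions were then read by width. Among E14-alone sites, the first 2 bins held a smaller share of the 300 bp sites than of the wider ones. The sites of both lines showed little such difference there. In the first 2 bins lay 17.9% (13.95 to 22.4%) of the E14-alone sites of 300 bp and 30.8% (22.1 to 40.6%) of the sites of both lines with that width. These 2 intervals overlapped narrowly. Among peaks of 450 bp or more the share in the first 2 bins was 28.5% (23.1 to 34.4%) against 31.1% (26.6 to 35.9%), also with overlapping intervals. In the last bin the order was kept among peaks of 450 bp or more, at 12.9% (9.12 to 17.6%) against 5.76% (3.69 to 8.52%), while at 300 bp those of 12.2% and 10.6% had overlapping intervals. Chromosome 4 gave 12 of the 75 sites in the last bin, and with that chromosome left out of both sets the shares there were 11.3% (8.80 to 14.2%) and 6.02% (4.04 to 8.59%).

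**Figure D4:**
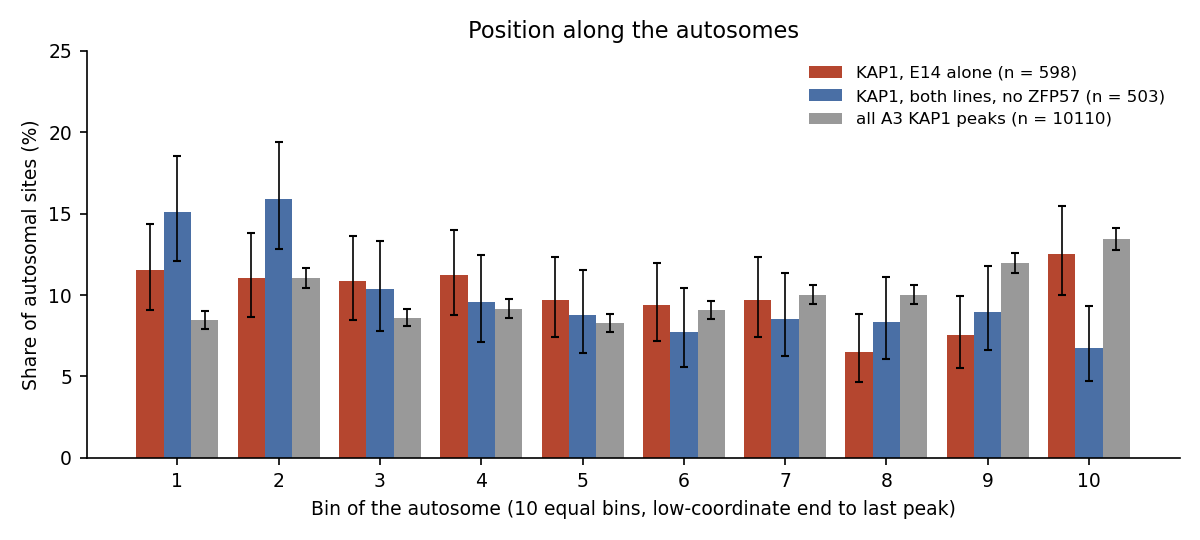
Share of autosomal sites (%) in each of 10 bins along the autosomes, counted from the low-coordinate end, for E14-alone KAP1 sites, KAP1 sites of both lines without ZFP57 and all A3 KAP1 peaks, with 95% exact intervals. The first 2 bins hold 22.6% of E14-alone sites and 31.0% of sites of both lines, and the last bin 12.5% and 6.76%.

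Most E14-alone sites stood by themselves. The median gap to the next E14-alone site was 1280 kb, and the smallest was 1.8 kb. Another such site lay within 10 kb of 23 sites (3.65%, 2.33 to 5.43%) and within 100 kb of 67 sites (10.6%, 8.34 to 13.3%). The sites of both lines had another of their own kind within 100 kb in 87 of 529 cases (16.4%, 13.4 to 19.9%). That set is smaller, and a smaller set has fewer neighbors at a given spread. Sites linked by gaps of up to 100 kb formed 563 singles, 24 pairs and 5 groups of 3 or more among the E14-alone sites, and 442 singles, 35 pairs and 5 such groups among the sites of both lines. An E14 KAP1 site shared with A3 lay within 100 kb of 53 E14-alone sites (8.41%, 6.37 to 10.9%).

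The groups of E14-alone sites were few and dense. The largest at a linkage of 100 kb held 6 sites of 600 to 1200 bp at chr13:13140151-13303200, where no other list had a peak. A second group on chromosome 13, at 12958501 to 13013700, consisted of the 3 wide sites described above. At a linkage of 1 Mb they joined into 9 sites in 345 kb. Over that stretch E14 KAP1 had 10 peaks, of which 9 were E14-alone, A3 KAP1 had 3 peaks and neither ZFP57 list had any. The stretch was drawn from its first to its last E14-alone site, so the E14-alone share within it follows in part from that choice. Just before it, the E14 KAP1 peaks at chr13:12918001-12919500 and chr13:12921151-12921900 overlapped A3 KAP1 peaks. The other groups of 3 or more at 100 kb were chrX:120274951-120336150, with 4 sites of 300 to 600 bp, chr2:87653851-87713400, with 3 sites of 300 to 450 bp and no peak of another list, and chr4:146030851-146050650, with 3 sites of 300 to 900 bp in 19.8 kb. One of the 24 pairs was at chr1:8776951-8847300.

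Chromosome 4 had the largest group at a linkage of 1 Mb, 11 sites of 300 to 900 bp at chr4:145050151-146471250. Here both KAP1 lists were dense. E14 KAP1 had 16 peaks, of which 11 (68.8%) were E14-alone, and A3 KAP1 had 18. Over all E14 KAP1 sites the E14-alone share was 47.3%. This stretch too was drawn from its first to its last E14-alone site, so the higher share is not read as a result. The gaps from these 11 sites to A3 KAP1 ran from 5.4 kb to 144 kb, so the peaks of the lines were interspersed along the stretch. The sites of this group at chr4:145050151-145050750 and chr4:146030851-146031750 lay 5.55 kb and 9.3 kb from an E14 ZFP57 peak.

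On chromosome X, 9 of the 29 sites lay at chrX:120274951-121005300. E14 KAP1 had 13 peaks there, E14 ZFP57 7, A3 ZFP57 8 and A3 KAP1 4. Several E14-alone KAP1 sites lay a short distance from E14 ZFP57 without meeting it. The gap was 0.45 kb at chrX:120335551-120336150, 4.5 kb at both chrX:120656551-120657000 and chrX:120877951-120878400, 8.55 kb at chrX:120780901-120781650 and 8.7 kb at chrX:120660751-120661050. The ZFP57 peak next to each of these was 600 bp wide. The other groups of at least 5 sites at a linkage of 1 Mb were chr2:8297701-11027100 and chr2:87079351-88842000 with 6 each, and chr12:115726651-116859900 and chr13:65618251-66955950 with 5 each. The choice to describe groups at 1 Mb was made after their positions were seen.

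**Figure D5:**
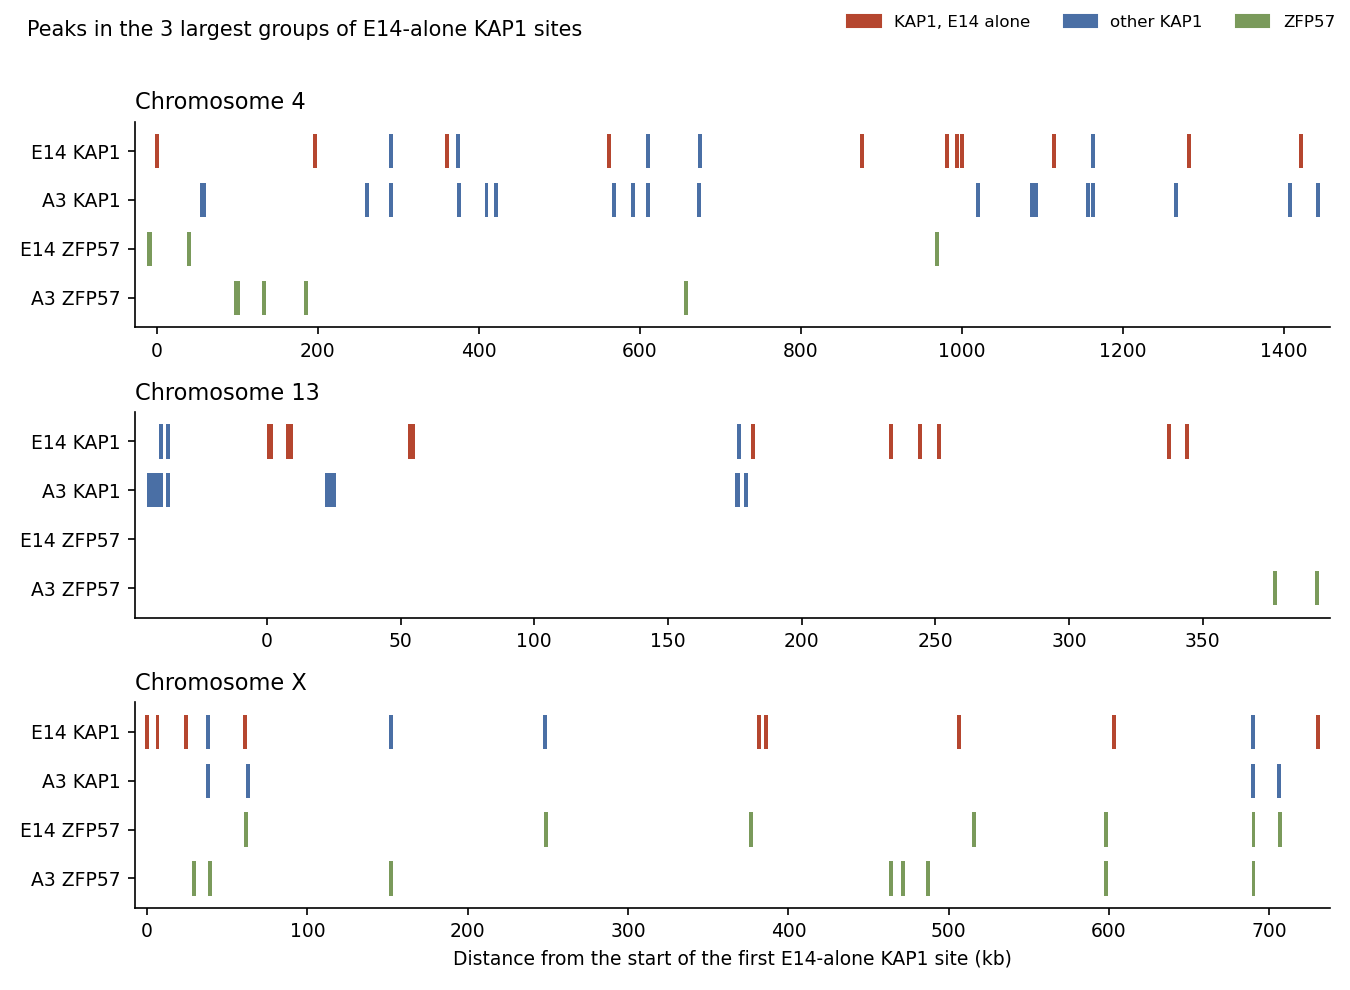
Peaks of the 4 lists around the 3 largest groups of E14-alone KAP1 sites at a linkage of 1 Mb, by distance (kb) from the start of the first E14-alone site. Narrow peaks are drawn at a fixed minimum width. The group on chromosome 13 has 9 E14-alone sites and no ZFP57 peak within its span, that on chromosome 4 has 11 among 18 A3 KAP1 peaks, and that on chromosome X has 9 among peaks of both ZFP57 lists.

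Overlap with ZFP57 was barred by the choice of sites, but nearness was not. An E14 ZFP57 peak lay within 10 kb of 13 E14-alone KAP1 sites (2.06%, 1.10 to 3.50%) and of 4 of the 529 sites of both lines (0.756%, 0.206 to 1.93%), with overlapping intervals. Of the 13, 6 were on chromosome X and 5 of these in the group just described. Off chromosome X this held for 7 of 601 (1.16%, 0.470 to 2.38%) against 4 of 506 (0.791%, 0.216 to 2.01%). On chromosome X it held for 6 of 29 E14-alone sites (20.7%, 7.99 to 39.7%) and 0 of 23 sites of both lines (0 to 14.8%). These intervals overlapped. A number of 3 counts among the 23, the limit set for a count of 0, would be 13.04%. An A3 ZFP57 peak lay within 10 kb of 15 E14-alone sites (2.38%, 1.34 to 3.90%) and of 20 sites of both lines (3.78%, 2.32 to 5.78%). The median gap to E14 ZFP57 was 1488 kb for E14-alone sites and 1479 kb for sites of both lines. The median gap to A3 ZFP57 was 579 kb and 649 kb in the same order. The E14 ZFP57 list held 602 peaks and the A3 ZFP57 list 1485, and both sets of sites were chosen to meet neither. The long gaps to ZFP57 are therefore not read as a trait of the sites.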

How the data were processed

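For each of the 4 libraries used here the authors deposited 1 list of called peaks, with 3 columns (chromosome, start, end) and no score or other value. Per the submitters' processing notes, CASAVA 1.8.2, Bowtie 0.12.7, SAMtools 0.1.18, bedtools 2.14.3-1 and build mm9 were used. No source used here gives the peak caller, its threshold or the use of input. The other 8 libraries were not analysed here.

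From these lists, 1 was subtracted from each start, overlapping or touching peaks were merged within a list, and peaks of different lists sharing at least 1 bp were joined into sites. Gaps were measured between facing edges. Sites were named by a fixed rule: the 15 widest, those within 150 bp of A3 KAP1 and the 5 farthest from it, E14 KAP1 peaks that met A3 KAP1 by 150 bp only, the 5 autosomal groups with most sites at 100 kb linkage, and groups of at least 3 on X or Y. The other near misses within 1 kb were named after their values were seen. The sites and measures were chosen with earlier results of these data known. Also tried were other overlap rules, width limits, autosomes alone, no merging and exclusion by A3 KAP1 alone. The joining and gaps were tested on simulated data against bedtools 2.31.1. Python 3.11.15, numpy 2.4.6, scipy 1.17.1 and matplotlib 3.10.9 were used.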

Additional observations from a re-analysis of the deposited data

How the results depend on the processing

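Over 8 results and 9 alternative settings, 58 of 70 values stayed within 1.5 times the count or within the 95% interval of the value reported. The restriction of every list to peaks of at least 450 bp moved 6 results. It left 305 sites (35.4% of E14 KAP1 sites), of which 14.1% had A3 KAP1 within 10 kb, 14.1% had another E14-alone site within 100 kb and 6.89% lay on chromosome X, and the median gap to A3 KAP1 was 83.7 kb. By its construction it has no share at the minimum width. With the A3 KAP1 list alone used to exclude sites, 54.0% of E14 KAP1 sites were kept, 49.3% of them had the minimum width and 12.8% had E14 ZFP57 within 10 kb, since sites that meet ZFP57 then enter. Where a reciprocal overlap of 50% was needed, 12.1% had A3 KAP1 within 10 kb, since sites that overlap it partly then enter. Without the 3 largest groups, a setting added after seeing the data, 7.82% had another E14-alone site within 100 kb and 0.998% had E14 ZFP57 within 10 kb. The other added setting counted touching peaks as overlapping. No paired analysis was possible because each group has 1 library. The depth of the libraries is unknown, so absence of a site from the A3 list is not read as absence of KAP1 there.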
